A study of Rattus norvegicus with 18 samples.

Results

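The cytochrome P450 genes of rat kidney cortex were examined in 18 RNA-seq libraries. Members were all table entries whose symbol is Cyp followed by a family number, a subfamily letter and a member number, apart from the vitamin D and sterol enzyme genes Cyp27b1, Cyp24a1 and Cyp27a1. The rule found 49 of 18420 genes: 20 of family Cyp2, 13 of Cyp4, 3 each of Cyp3 and Cyp26, 2 of Cyp1, and 1 each of Cyp7, Cyp8, Cyp11, Cyp17, Cyp20, Cyp21, Cyp39 and Cyp46. Of these, 29 averaged at least 10 normalised reads in 1 group and are described. A normalised read count is a gene's read count divided by the library's size factor, a scaling for depth.

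The libraries form 3 groups of 6. RYGB libraries came from Zucker diabetic fatty (ZDF) rats of genotype fa/fa, which are obese and diabetic, after Roux-en-Y gastric bypass, a weight-loss operation in which food enters the jejunum from a small gastric pouch. Disease libraries came from ZDF fa/fa rats labelled as the disease control, and healthy control libraries from lean ZDF fa/+ rats without diabetes. The fa allele disrupts the leptin receptor, so the healthy controls also carry 1 copy of it. The labels state neither sex, age nor time after the operation. The tissue was frozen cortex with all its cell types.

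P450 enzymes are haem proteins of the endoplasmic reticulum or mitochondria that insert oxygen into lipids, steroids, vitamins and foreign compounds, using electrons from partner proteins such as the reductase Por. In rat kidney the best-known ones act on arachidonic acid in the proximal tubule. Epoxygenases of subfamilies Cyp2c and Cyp2j make epoxides that widen vessels and promote sodium loss, and hydroxylases of Cyp4a and Cyp4f make hydroxy acids that constrict vessels. Genes of subfamily Cyp2d oxidise drugs, Cyp2e1 oxidises ethanol and ketones, Cyp7b1, Cyp8b1 and Cyp39a1 hydroxylate sterols, Cyp17a1 and Cyp21a1 make steroid hormones, and Cyp26 enzymes destroy retinoic acid.

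The starts of 5 members whose groups differed are shown, because 3 of them, Cyp2d2, Cyp2d4 and Cyp2d5, lie close together and were all higher in RYGB than in disease libraries. The sequences run 5′ to 3′ from 250 bases before to 50 bases after the annotated start and are credited to RefSeq, build GRCr8. Capitals mark matches, on either strand, to TATAAA (the TATA box), AGGTCA (a nuclear receptor core) or TTGCNNAA (a CEBP site). The 3 Cyp2d starts are on the minus strand at chr7:115819232-115819531, chr7:115771772-115772071 and chr7:115784438-115784737, in the order printed, within 47.8 kb. Cyp2e1 is on the plus strand at chr1:205269717-205270016 and Cyp2c24 on the plus strand at chr1:246286091-246286390.
Cyp2d2: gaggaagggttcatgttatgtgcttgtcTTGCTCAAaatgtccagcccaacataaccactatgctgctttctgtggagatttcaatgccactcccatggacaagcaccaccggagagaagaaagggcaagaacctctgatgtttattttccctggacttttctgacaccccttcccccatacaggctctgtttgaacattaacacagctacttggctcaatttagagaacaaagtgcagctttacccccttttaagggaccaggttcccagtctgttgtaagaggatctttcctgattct
Cyp2d4: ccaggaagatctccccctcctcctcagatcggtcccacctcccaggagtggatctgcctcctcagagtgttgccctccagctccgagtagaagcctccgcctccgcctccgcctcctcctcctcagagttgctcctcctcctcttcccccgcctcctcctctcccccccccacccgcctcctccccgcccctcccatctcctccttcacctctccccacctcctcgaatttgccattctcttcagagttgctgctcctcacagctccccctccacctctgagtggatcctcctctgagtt
Cyp2d5: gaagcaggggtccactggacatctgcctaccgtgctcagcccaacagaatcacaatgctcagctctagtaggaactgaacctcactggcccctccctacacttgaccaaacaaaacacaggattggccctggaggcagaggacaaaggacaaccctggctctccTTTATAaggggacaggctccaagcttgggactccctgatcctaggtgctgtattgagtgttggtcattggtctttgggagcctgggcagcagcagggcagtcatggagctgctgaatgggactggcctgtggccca
Cyp2e1: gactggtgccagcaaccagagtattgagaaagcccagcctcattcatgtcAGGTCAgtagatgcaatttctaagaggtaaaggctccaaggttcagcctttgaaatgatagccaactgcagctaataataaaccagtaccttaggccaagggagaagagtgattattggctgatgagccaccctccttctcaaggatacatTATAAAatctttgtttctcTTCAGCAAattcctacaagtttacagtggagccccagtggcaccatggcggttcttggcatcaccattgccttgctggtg
Cyp2c24: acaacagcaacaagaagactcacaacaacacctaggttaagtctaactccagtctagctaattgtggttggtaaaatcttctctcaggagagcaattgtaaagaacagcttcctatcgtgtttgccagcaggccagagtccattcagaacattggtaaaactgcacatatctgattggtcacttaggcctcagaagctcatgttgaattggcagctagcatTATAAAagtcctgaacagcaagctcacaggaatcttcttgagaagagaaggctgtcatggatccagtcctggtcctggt

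In the Cyp2d2 window the CEBP letters lie at bases -222 to -215 from the start. Cyp2d5 holds a TATA box on the opposite strand at -86 to -81, and Cyp2d4 holds none of the 6 motifs searched. Cyp2e1 holds AGGTCA at -200 to -195, TATAAA at -49 to -44 and the CEBP letters at -30 to -23, and Cyp2c24 holds TATAAA at -29 to -24. The motifs did not overlap each other in these windows. Among 23 described members found in the promoter table, 8 held AGGTCA, 5 TATAAA and 3 TTGCNNAA, while 16.2%, 14.2% and 10.6% of all 33469 promoters of that length did. The other motifs searched were TTCNNNGAA (STAT5), in 4 members and 8.87% of all promoters, GCGTG (the aryl hydrocarbon receptor core), in 9 members and 29.7%, and CAAAGTCCA (HNF4), in 0 members and 0.391%. Such matches describe letters in the window and no more.

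All members together summed to 177241, 228686 and 255939 normalised reads as the lowest, median and highest RYGB library. The sums were 107338, 167810 and 232145 in disease and 137235, 196633 and 310108 in healthy control libraries, so the 3 groups overlapped. Cyp4a2, an arachidonic acid hydroxylase gene, supplied 43.4% of these reads. Reads per gene grow with transcript length, so such shares are shares of reads and not of molecules. The Cyp2 sum averaged 109103 ± 19719 in RYGB, 69322 ± 23072 in disease and 76449 ± 28074 in healthy control libraries (SD, n = 6 each), with 68.4% from the epoxygenase gene Cyp2c23. The Cyp4 sum averaged 112995 ± 29510, 91616 ± 23050 and 127993 ± 32829 in the same groups, highest in healthy controls. These sums have no test.

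Of the 28 described members that passed the filter on low values, 10 differed in at least 1 comparison and 18 in none. The like share of all genes was not counted, so the 10 are read by comparison. A difference was called at an adjusted p below 0.05 in limma, over all 13988 genes tested in 1 fit of 18 libraries. RYGB against disease had 6 members higher and 1 lower, where 1.84% of all genes tested were called higher and 2.1% lower. Over the 28 members, of which 22 had a positive fold change, the median log2 fold change was 0.56, against -0.0009 over all genes tested. That shift was not particular to P450 genes. In the same comparison 23 tested proximal tubule markers had a median of 0.56, with 18 positive, and their part in the P450 shift was not tested. RYGB against healthy controls had 4 members higher (2.46% of all genes) and 2 lower (1.98%), with a median of 0.13, against -0.0128 over all genes. Disease against healthy controls had 0 members higher (0.579% of all genes) and 3 lower (1.03%), with a median of -0.16, against 0.0016. At an unadjusted p below 0.05, in either direction, the numbers were 15, 14 and 8 of 28 members in the same order, where 20.7%, 26.2% and 11.1% of all genes tested passed. The 3 comparisons share their libraries, so a gene that is extreme in 1 group appears in 2 of them.

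**Figure D1:**
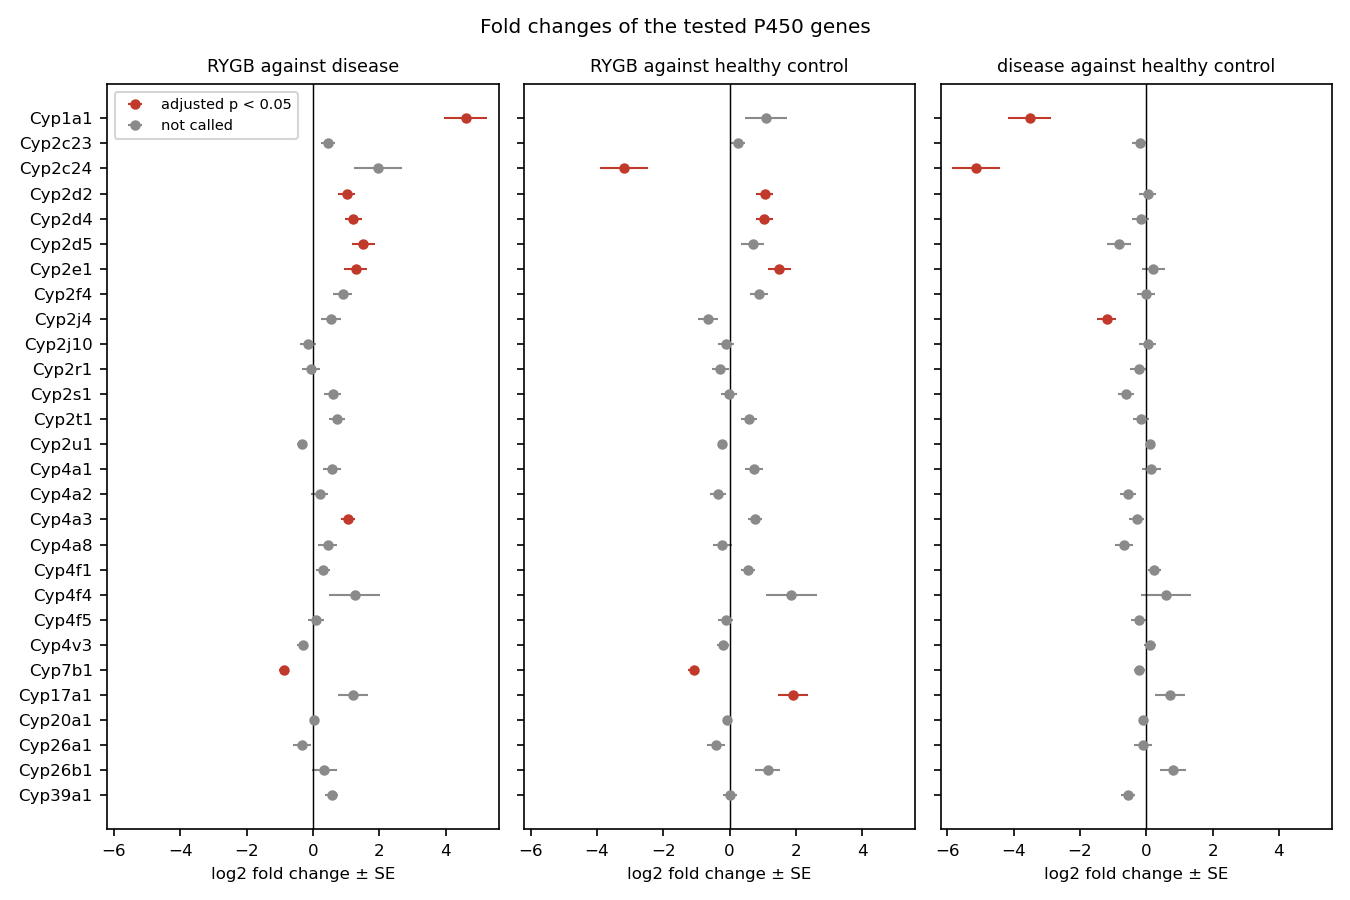
Log2 fold change ± SE on the log2(normalised reads + 1) scale (horizontal axis) of the 28 tested P450 genes (vertical axis) in each comparison, from limma over 18 libraries, with genes called at an adjusted p below 0.05 in red. The widest differences are those of Cyp1a1 and Cyp2c24, and in RYGB against disease 22 of 28 genes lie right of 0.

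The libraries of the compared groups did not overlap at all in 5 members between RYGB and disease (Cyp1a1, Cyp7b1, Cyp4a3, Cyp2e1 and Cyp2f4), where 2.6% of all genes did so. They did not overlap in 3 members between RYGB and healthy controls (Cyp7b1, Cyp2c24 and Cyp17a1; 3.22% of all genes) and in 1 between disease and healthy controls (Cyp2c24; 1.24%). For 22 of the 29 described members every pair of groups overlapped. The like share of all genes was not counted, so that number is no result about the family.

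**Figure D2:**
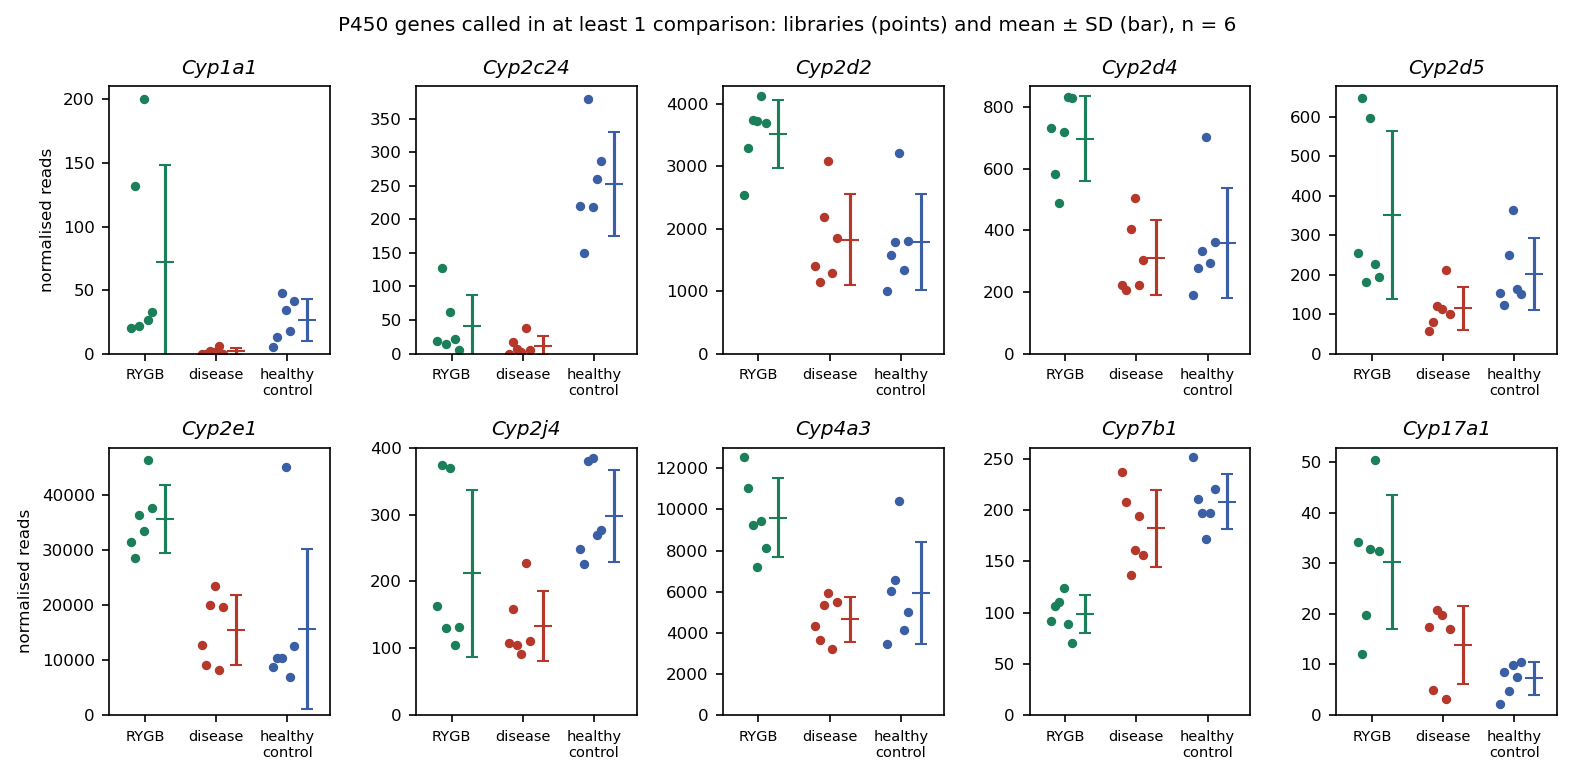
Normalised reads (vertical axis, from 0, a scale for each gene) of the 10 P450 genes called in at least 1 comparison, with 1 point per library and the mean ± SD beside the points (n = 6 per group). RYGB and disease points are apart in Cyp1a1, Cyp2e1, Cyp4a3 and Cyp7b1, and 1 healthy control library stands at 45164 in Cyp2e1 while the other healthy controls lie between 6951 and 12542.

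Cyp1a1, the enzyme gene classically switched on by the aryl hydrocarbon receptor, was nearly silent in disease kidneys. Its lowest, median and highest values were 19.84, 29.27 and 200.4 normalised reads in RYGB, 0, 0.7027 and 6.166 in disease, and 5.478, 26 and 47.31 in healthy control libraries. Before scaling these were 469, 10 and 171 reads summed over the 6 libraries of RYGB, disease and healthy control, and 3 disease libraries had 0 reads. All RYGB libraries lay above all disease libraries, and 5 of 6 disease libraries lay below every healthy control. The log2 fold change was 4.61 ± 0.65 for RYGB against disease (adjusted p = 0.000514, limma) and -3.52 ± 0.65 for disease against healthy control (0.00514). RYGB against healthy control, at 1.10 ± 0.65, was not called (0.277). Cyp1a1 passed the filter on low values only with the RYGB libraries counted, so its calls are not independent of that filter. The RYGB values were uneven: RYGB replicates 2 and 4 had 132.1 and 200.4, and the other 4 lay between 19.84 and 32.34. The RYGB mean was 44.6 times the disease mean, 28.7 times without RYGB replicate 4 and 102 times without disease replicate 5, and the disease mean was 0.0611 of the healthy control mean, or 0.0267 without disease replicate 5. In RYGB against healthy control the ratio of means was 2.72, and 1.76 without RYGB replicate 4. Bulk libraries cannot tell fewer cells of a type from less RNA per cell, here and in the results that follow.

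Cyp2c24 had the largest fall of any tested member, in disease against healthy control. It had 5.988, 20.25 and 127.6 normalised reads as lowest, median and highest in RYGB, 0, 6.006 and 38.54 in disease, and 150.5, 240 and 379.7 in healthy control libraries. Every RYGB and every disease library was below every healthy control library, while RYGB and disease overlapped. The log2 fold change was -5.14 ± 0.72 for disease against healthy control (adjusted p = 0.000565, limma), where the ratio of means was 0.0464, or 0.0252 without disease replicate 5. For RYGB against healthy control it was -3.18 ± 0.72 (0.0191), which was not called without RYGB replicate 6 (0.056). The ratio there was 0.165, or 0.097 without RYGB replicate 2. RYGB against disease, 1.96 ± 0.72, was not called (0.127), but was without disease replicate 5 (0.0391). That ratio, 3.56, was 6.56 without disease replicate 5 and 2.09 without RYGB replicate 2.

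Cyp2j4, a rat epoxygenase gene, showed a like order with a smaller range. Its lowest, median and highest values were 104.8, 147.4 and 373.8 in RYGB, 90.65, 108.7 and 228.2 in disease, and 226.2, 273 and 385.1 in healthy control libraries. Disease fell below healthy control by 1.20 ± 0.30 on the log2 scale (adjusted p = 0.0461, limma), with 5 of 6 disease libraries under every healthy control. That call is marginal: it was lost without any 1 healthy control library, without disease replicate 1, 2, 3, 4 or 6 and without RYGB replicate 1 or 6 (0.0518 to 0.133). It was also lost with no filter (0.0504), with a minimum of 50 (0.0575), in edgeR (0.068) and in the fit of all groups with the replicate number as a block (0.087). With that block in a fit of disease and healthy control alone, whose same-numbered libraries correlate weakly, it was kept (0.0206). That fit was added after the data were seen. RYGB replicates 2 and 4 had 373.8 and 370.3, inside the healthy control range, and the other 4 had 104.8 to 163.1. RYGB against healthy control, -0.65 ± 0.30, was not called (0.176). Leaving out those 2 libraries, a refit added after the data were seen, removes the 2 values inside the healthy control range. The call it gave (0.0165) is therefore no support for a difference.

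Summed markers of the late proximal tubule had the same order of group medians as Cyp2c24 and Cyp2j4. They were 40390 to 123077 normalised reads in RYGB, 29035 to 64536 in disease and 94642 to 183801 in healthy control libraries. RYGB replicates 2 and 4 had 114855 and 123077, and the other 4 at most 59889. Disease replicate 5 had the highest disease sum, 64536, and was also the highest disease library in Cyp1a1, Cyp2c24, Cyp2d5, Cyp2j4 and Cyp4a8. Of 10 tested markers in that list 7 fell in disease against healthy control and 0 rose, led by the organic anion carrier gene Slco1a1 (log2 fold change -5.62 ± 0.70, adjusted p = 0.000215, limma), Kap (-3.52 ± 0.52, 0.000911) and the amino acid carrier gene Slc7a13 (-3.76 ± 0.64, 0.00335). In RYGB against disease 1 was higher and 0 lower, and in RYGB against healthy control 0 were higher and 3 lower. None of the list's genes was under 10 in all libraries. Healthy control replicate 4 had the lowest late proximal tubule sum of its group, 94642, but the highest Cyp2j4 value, 385.1. Replicate 3 had the highest sum, 183801, and the highest Cyp2c24 value, 379.7. Within their groups, summed adipocyte markers were also highest in RYGB replicates 2 and 4 (1282 and 1304, others at most 653.9) and disease replicate 5 (1144). Collecting duct sums were highest in RYGB replicate 2 (52769) and disease replicate 5 (58433). The part of these markers in the P450 results was not tested.

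**Figure D3:**
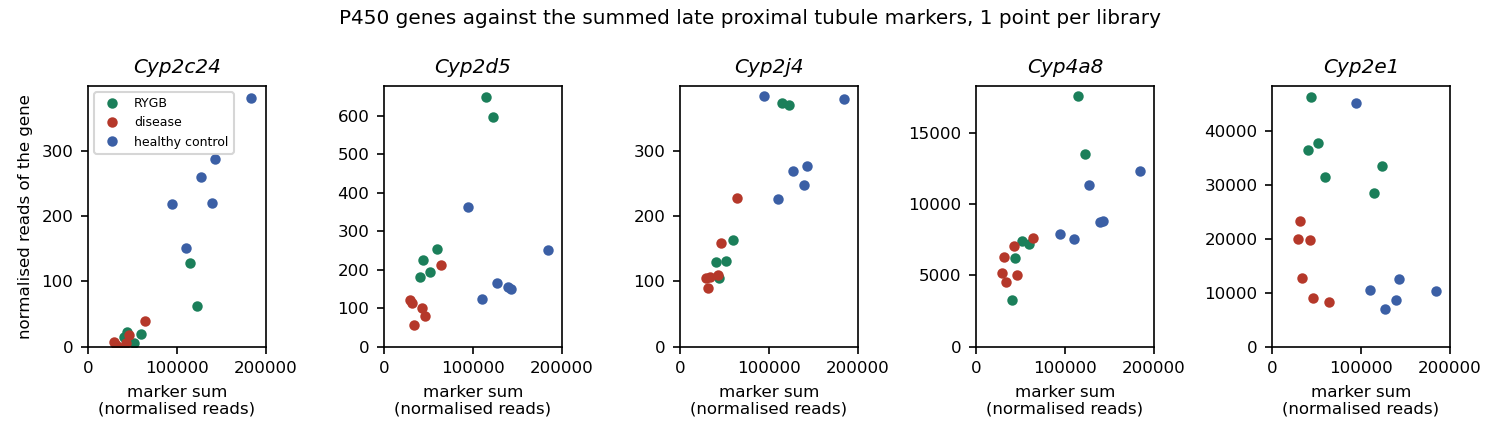
Normalised reads of 5 P450 genes (vertical axis, from 0) against the summed late proximal tubule markers (horizontal axis, normalised reads), with 1 point per library coloured by group. In Cyp2c24, Cyp2d5, Cyp2j4 and Cyp4a8 the RYGB libraries with the 2 highest marker sums, 114855 and 123077, hold the 2 highest RYGB values, and in Cyp2e1 they do not.

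The clustered genes Cyp2d2, Cyp2d4 and Cyp2d5, whose starts are printed above, were all higher in RYGB than in disease kidneys. Cyp2d2 had 2534, 3705 and 4127 normalised reads as lowest, median and highest in RYGB, 1144, 1628 and 3076 in disease, and 993.6, 1683 and 3216 in healthy control libraries. The fold change was 1.02 ± 0.24 on the log2 scale against disease (adjusted p = 0.0241, limma) and 1.06 ± 0.24 against healthy control (0.0213). In each comparison 5 of 6 RYGB libraries lay above the highest library of the other group. The first call was lost without disease replicate 1 or 2 or RYGB replicate 4 or 5 (0.0535 to 0.0647). The second was lost without healthy control replicate 1 or RYGB replicate 5 or 6 (0.0512 to 0.0641), while without healthy control replicate 4 it was 1.24 (0.00157). With RYGB replicates 2 and 4 both left out neither call held (0.0934 and 0.0782), at log2 fold changes of 1.01 and 1.05.

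Cyp2d4 had 488.5, 726.3 and 834.7 normalised reads in RYGB, 207.7, 263.7 and 505.9 in disease, and 190.6, 313.3 and 704 in healthy control libraries (lowest, median and highest). Against disease it rose by 1.22 ± 0.26 on the log2 scale (adjusted p = 0.0128, limma), a call kept without any 1 library (0.00257 to 0.04). Against healthy control it rose by 1.05 ± 0.26 (0.0308), with 4 of 6 RYGB libraries above every healthy control. That call was lost without any 1 healthy control other than replicate 4, and without RYGB replicate 1, 4, 5 or 6 (0.0546 to 0.0879), and with RYGB replicates 2 and 4 both left out (0.0859). Without healthy control replicate 4 it was 1.27 (0.00182). Healthy control replicate 4, at 704, stood apart from the other healthy controls, at 190.6 to 361.6, and likewise in Cyp2d2 at 3216 against 993.6 to 1808.

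Cyp2d5 had 182.5, 240.3 and 648.5 normalised reads in RYGB, 57.3, 107 and 212.7 in disease, and 123, 159.6 and 363.1 in healthy control libraries (lowest, median and highest). It rose by 1.52 ± 0.35 against disease (adjusted p = 0.0194, limma), with 4 of 6 RYGB libraries above every disease library, and was lost without disease replicate 1 or 2 or RYGB replicate 4 (0.0529 to 0.0546). RYGB replicates 2 and 4 had 648.5 and 597.3 and the other 4 lay between 182.5 and 254.6. With both left out the call was lost (0.13), at a log2 fold change of 1.01. RYGB against healthy control, 0.70 ± 0.35, was not called (0.209). The fourth Cyp2d member, Cyp2d3, reached at most 13.85 in any library. Cyp2d genes resemble each other, and reads that fit several copies were not counted, so their separate levels are uncertain, as are those of Cyp2c and Cyp4a genes.

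Cyp2e1 was higher in RYGB than in either other group. Its lowest, median and highest values were 28489, 34942 and 46396 normalised reads in RYGB, 8204, 16242 and 23397 in disease, and 6951, 10410 and 45164 in healthy control libraries. All 6 RYGB libraries were above all disease libraries and above 5 of the 6 healthy controls. It rose by 1.30 ± 0.35 on the log2 scale against disease (adjusted p = 0.0416, limma) and by 1.50 ± 0.35 against healthy control (0.0223). The first call is marginal: it was lost without disease replicate 1, 2 or 5, without any 1 RYGB library or without healthy control replicate 2, 3 or 6 (0.0501 to 0.0987), and in edgeR (0.0736). The second was lost without healthy control replicate 1, 2 or 5 or RYGB replicate 5 or 6 (0.0523 to 0.0676), and in edgeR (0.0633). With RYGB replicates 2 and 4 both left out neither call held (0.105 and 0.057), at log2 fold changes of 1.39 and 1.60. Without healthy control replicate 4 its adjusted p was 0.000124, and the ratio of means was 3.64 in place of 2.27. Disease and healthy control differed by 0.21 ± 0.35 (0.878), where the ratio of means was 0.989, or 1.58 without that library. Among the liver markers, Cps1, Ttr and Alb reached at most 3.083, 13.84 and 134.7 in any library. Serpina1, a protease inhibitor gene, averaged 66.55 ± 34.5 in RYGB and 11.04 ± 5.91 in healthy control libraries (SD, n = 6 each) and was called higher in RYGB, as Cyp2e1 was (2.47 ± 0.52, 0.0121, limma). The fibrinogen gene Fgb was called lower in RYGB than in disease libraries (-1.50 ± 0.29, 0.00661). Another fibrinogen gene, Fga, averaged 568.3 ± 110 in RYGB, 662.5 ± 334 in disease and 470.6 ± 273 in healthy control libraries. The part of these markers in the Cyp2e1 results was not tested.

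Among the other Cyp2 genes none was called. Cyp2c23, the main arachidonic acid epoxygenase of rat kidney, had 50100, 70395 and 87539 normalised reads in RYGB, 30628, 51880 and 72819 in disease, and 42636, 57505 and 78488 in healthy control libraries (lowest, median and highest). Its fold changes were 0.45 ± 0.22 for RYGB against disease (adjusted p = 0.247, limma), 0.25 ± 0.22 for RYGB against healthy control (0.468) and -0.20 ± 0.22 for disease against healthy control (0.791), with wide overlap. Cyp2f4 averaged 101.9 ± 38.7 in RYGB, 51.94 ± 7.41 in disease and 57.18 ± 27.3 in healthy control libraries (SD, n = 6 each). All of its RYGB values exceeded all disease values, yet its 0.90 ± 0.28 missed the threshold (0.0729). It was called without healthy control replicate 1 (0.0315) or 4 (0.0387), in edgeR (0.042), in DESeq2 (0.0101) and with the 2 groups fitted alone (0.0343). Against healthy control, 0.89 ± 0.28 (0.0649), it was called without healthy control replicate 4 (0.0124) and in DESeq2 (0.0214).

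Cyp2t1 had 298.3 to 465.4 normalised reads in RYGB, 132.4 to 405.7 in disease and 178.6 to 353.9 in healthy control libraries. RYGB against disease, 0.73 ± 0.24 (adjusted p = 0.0915, limma), was called without disease replicate 3 (0.039) or 4 (0.0483). RYGB against healthy control, 0.58 (0.139), was called with the 2 groups fitted alone (0.0379). Cyp2s1 had 238.1 to 669.5 in RYGB, 161.2 to 420.8 in disease and 244.2 to 485 in healthy control libraries. Cyp2r1, a vitamin D hydroxylase gene, had 82.56 to 305.6, 131 to 334.4 and 190.8 to 323.4 in RYGB, disease and healthy control libraries. Cyp2u1, a fatty acid hydroxylase gene, had 137.7 to 189.1, 157.8 to 237.1 and 150.3 to 202.7, and Cyp2j10 had 26.35 to 79.56, 32.25 to 78.62 and 47.11 to 63.42, in the same order of groups. The groups overlapped in all 5 of these genes.

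In family Cyp4 only Cyp4a3, a fatty acid hydroxylase gene, was called. It had 7222, 9322 and 12546 normalised reads as lowest, median and highest in RYGB, 3203, 4837 and 5926 in disease, and 3464, 5522 and 10418 in healthy control libraries. The 6 RYGB libraries lay above the 6 disease libraries. The log2 fold change was 1.05 ± 0.22 against disease (adjusted p = 0.0107, limma), kept without any 1 library (0.00211 to 0.0334). RYGB against healthy control, 0.76 ± 0.22, fell just short (0.0514). It was called without healthy control replicate 4 (0.00457), disease replicate 5 (0.0446) or 6 (0.0431) or RYGB replicate 3 (0.0455), in DESeq2 (0.0283), with quantile normalization (0.0473) and with the 2 groups fitted alone (0.0451).

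No other gene of subfamily Cyp4a was called. Cyp4a2, the arachidonic acid hydroxylase gene with the most reads of the family, had 52171, 75474 and 118228 normalised reads in RYGB, 45314, 66663 and 104965 in disease, and 62301, 100182 and 147003 in healthy control libraries (lowest, median and highest). Its fold changes were 0.20 ± 0.25 for RYGB against disease (adjusted p = 0.672, limma), -0.35 ± 0.25 for RYGB against healthy control (0.359) and -0.55 ± 0.25 for disease against healthy control (0.393). Cyp4a1 had 3040 to 4868 in RYGB, 1423 to 3666 in disease and 1517 to 5301 in healthy control libraries. RYGB against healthy control, 0.74 ± 0.27 (0.108), was called for it without healthy control replicate 4 (0.0139). Cyp4a8 had 3265 to 17590 in RYGB, 4552 to 7628 in disease and 7546 to 12358 in healthy control libraries. Its 2 highest RYGB values, 17590 and 13553, were those of replicates 2 and 4. Disease against healthy control, -0.67 ± 0.28 (0.362), was called for Cyp4a8 with the replicate number as a block in a fit of those 2 groups (0.0322).

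In subfamily Cyp4f, whose enzymes hydroxylate fatty acids and leukotrienes, Cyp4f1 had 4320, 6972 and 8721 normalised reads in RYGB, 3847, 4833 and 7804 in disease, and 3227, 4329 and 6356 in healthy control libraries (lowest, median and highest). Its fold change of 0.55 ± 0.20 for RYGB against healthy control (adjusted p = 0.105, limma) was called without healthy control replicate 4 (0.0479) or RYGB replicate 3 (0.0409). Cyp4f4 was low, at 2.205 to 28.74 in RYGB, 0 to 12.33 in disease and 0 to 2.348 in 5 healthy control libraries. Healthy control replicate 4 had 29.44. The ratio of means was 2.52 for RYGB against healthy control and 11.2 without that library, and 0.966 for disease against healthy control and 4.3 without it. Cyp4f5 had 55.88 to 86.09 in RYGB, 32.39 to 103.3 in disease and 61.89 to 88.31 in healthy control libraries. Cyp4v3, another fatty acid hydroxylase gene, had 950.2 to 1399, 1036 to 2235 and 1084 to 2012 in RYGB, disease and healthy control libraries.

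**Figure D4:**
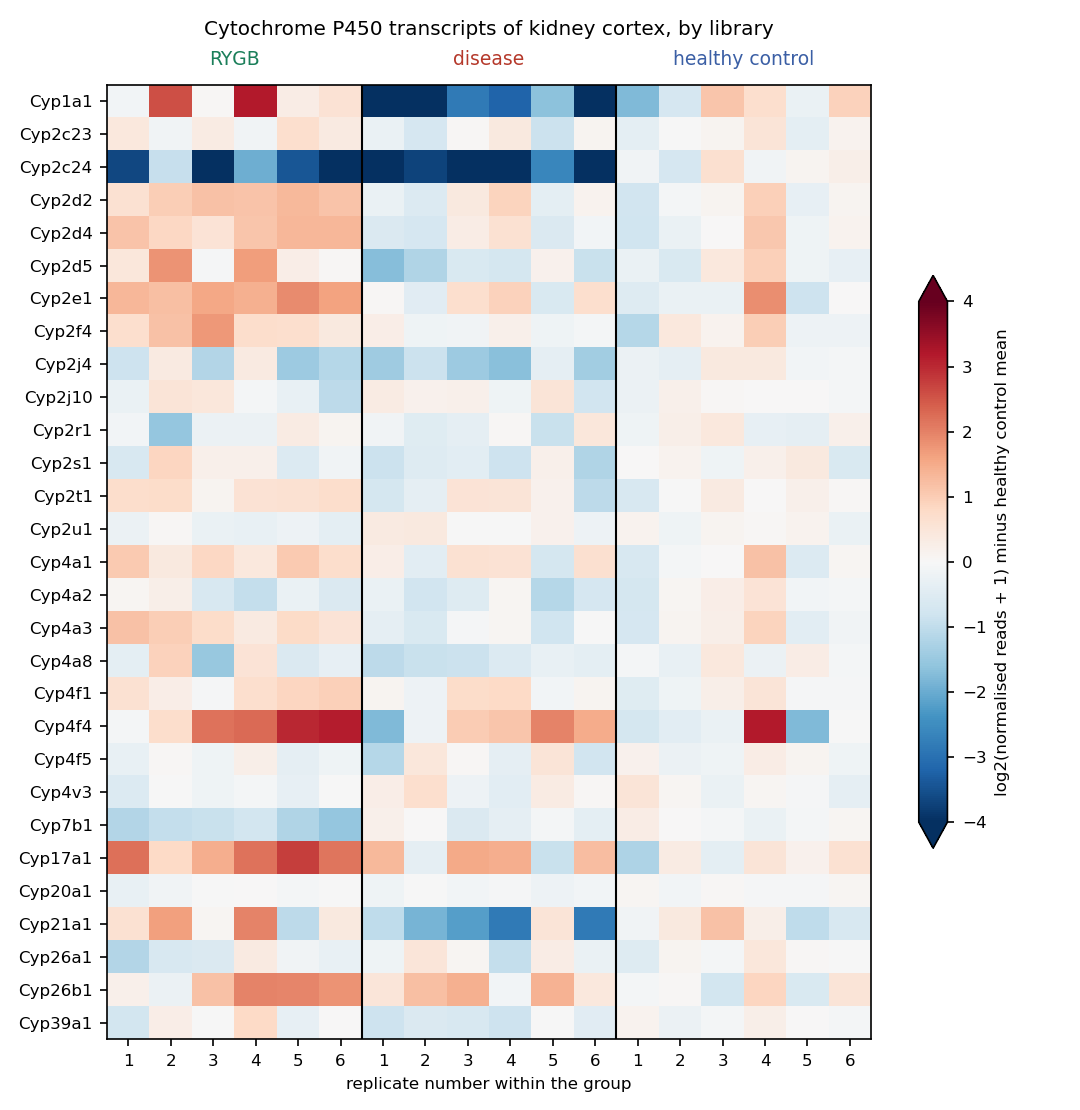
Log2(normalised reads + 1) of the 29 described P450 genes (down the page) in each of the 18 libraries (across, by replicate number), minus the healthy control mean of that gene, with red for higher and blue for lower and colours capped at 4. Cyp2c24 is blue in all RYGB and all disease libraries, Cyp7b1 is blue in all RYGB libraries, and healthy control replicate 4 is the highest of its group in 16 of the 29 genes.

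Among the sterol and steroid enzymes, Cyp7b1 fell in RYGB. This oxysterol hydroxylase gene had 70.66, 99.04 and 124.2 normalised reads in RYGB, 136.8, 177.6 and 236.7 in disease, and 171.7, 204.2 and 252 in healthy control libraries (lowest, median and highest). Every RYGB library was below every library of both other groups. The log2 fold change was -0.88 ± 0.16 against disease (adjusted p = 0.00343, limma) and -1.08 ± 0.16 against healthy control (0.000768), and both calls held without any 1 library (at most 0.0119 and 0.0032). Disease and healthy control differed by -0.21 ± 0.16 and were not called (0.669).

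Cyp17a1, a gene of steroid hormone synthesis, was low in every library but highest in RYGB. It had 12.01, 32.55 and 50.44 normalised reads in RYGB, 3.083, 17.21 and 20.76 in disease, and 2.191, 7.985 and 10.57 in healthy control libraries (lowest, median and highest). Before scaling these were 229, 91 and 43 reads in all. Cyp17a1 passed the filter on low values only with the RYGB libraries counted, so its call is not independent of that filter. RYGB and healthy control did not overlap, with a log2 fold change of 1.92 ± 0.45 (adjusted p = 0.0231, limma). The call was lost without healthy control replicate 1 or 3 or RYGB replicate 1, 5 or 6 (0.051 to 0.0696). RYGB against disease, 1.21 ± 0.45, was not called (0.134). The adrenal regulator gene Nr5a1 reached at most 3.083 in any library, and the steroid transport gene Star had 14.37 to 28.66 in RYGB, 15.28 to 34.88 in disease and 13.75 to 29.44 in healthy control libraries. Of 4 tested adrenal markers Mrap alone was called, lower in disease than in healthy control (-1.58 ± 0.32, 0.0128, limma). It averaged 106.6 in RYGB, 48.77 in disease and 143.6 in healthy control libraries. Fdx1, not called, averaged 1349, 1132 and 1116 in the same order. The part of these markers in the Cyp17a1 results was not tested.

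Cyp39a1, another oxysterol hydroxylase gene, had 97.01 to 286.4 normalised reads in RYGB, 90.65 to 161.9 in disease and 137.5 to 193.8 in healthy control libraries. Its 0.56 ± 0.20 for RYGB against disease (adjusted p = 0.123, limma) was called in DESeq2 (0.0482). Cyp21a1, the steroid hydroxylase gene, had 2.473 to 27.43 in RYGB, 0 to 9.249 in disease and 2.522 to 14.97 in healthy control libraries and did not pass the filter on low values. With no filter RYGB against disease was called for it, at 2.32 (0.0301). It averaged at least 10 in RYGB alone, the group called higher, so that call is no independent support. The ratio of means was 5.72, or 15.8 without disease replicate 5, and 0.314 for disease against healthy control, or 0.114 without it. Cyp8b1, the sterol hydroxylase gene of bile acid synthesis, averaged under 10 in every group, with 0 to 3.002 in RYGB, 0 to 0.5324 in disease and 3.287 to 23.36 in healthy control libraries. With no filter it was called lower in RYGB (-2.26, 0.00323) and in disease (-2.94, 0.000401) than in healthy control libraries. Cyp8b1 did not pass the filter on low values, and 5 disease libraries had 0 reads of it, so these calls rest on values near 0.

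The retinoic acid hydroxylase gene Cyp26b1 had 123.1, 415 and 573.7 normalised reads in RYGB, 132.8, 267.7 and 387.6 in disease, and 86.24, 143.1 and 264.9 in healthy control libraries (lowest, median and highest). Its 1.15 ± 0.39 for RYGB against healthy control was not called (adjusted p = 0.0837, limma), but was without healthy control replicate 4 (0.0382) or RYGB replicate 2 (0.0407), in edgeR (0.0437) and in DESeq2 (0.00989). Cyp26a1 had 12.13 to 36.57 in RYGB, 14.05 to 40.17 in disease and 19.72 to 39.25 in healthy control libraries. Cyp20a1, whose substrate is not known, had 795.9 to 982, 844.8 to 958.3 and 906.2 to 1041 in RYGB, disease and healthy control libraries.

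The 20 members under the minimum were Cyp1b1, Cyp2a1, Cyp2c6v1, Cyp2c7, Cyp2c13, Cyp2c22, Cyp2d3, Cyp2j16, Cyp3a9, Cyp3a18, Cyp3a62, Cyp4f18, Cyp4f37, Cyp4f39, Cyp4f40, Cyp4x1, Cyp8b1, Cyp11a1, Cyp26c1 and Cyp46a1. Of these Cyp3a9 had 0 reads in all 18 libraries, and Cyp8b1 reached the highest value, 23.36.

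Of 28 tested regulators of P450 genes, 3 were higher and 0 lower in RYGB against disease: the lipid regulator gene Srebf1 (log2 fold change 1.11 ± 0.26, adjusted p = 0.0234, limma) and the growth hormone signalling genes Stat5a (0.95 ± 0.24, 0.0281) and Stat5b (0.40 ± 0.11, 0.0499). In RYGB against healthy control 2 were higher, among them the transcription factor gene Cebpa (0.65 ± 0.15, 0.0209), and 0 lower, and in disease against healthy control 0 of 28 were called. Over the 28 regulators the median fold changes were 0.32, 0.17 and -0.14 in these 3 comparisons, in that order, with 24, 17 and 9 positive. Of 6 tested targets of the aryl hydrocarbon receptor other than Cyp1a1, 0 were called in any comparison, and their median fold changes were -0.08 for RYGB against disease, -0.12 for RYGB against healthy control and -0.16 for disease against healthy control. Of 20 tested targets of PPAR alpha, the fatty acid sensor, 0 were called in RYGB against disease and 0 in disease against healthy control. In RYGB against healthy control 2 were higher and 0 lower, among them Cpt2 (0.65 ± 0.17, 0.039), a gene of fatty acid import into mitochondria. Over the 20 targets the median fold change was 0.12 for RYGB against disease, with 12 positive. It was 0.34 for RYGB against healthy control and 0.20 for disease against healthy control, with 18 positive in each.

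Electron partners and haem enzymes were 18 genes, of which the haem-degrading Hmox1 alone was called. It averaged 57.77 ± 16.4 in RYGB, 777.3 ± 937 in disease and 637.4 ± 968 in healthy control libraries (SD, n = 6 each), and was lower in RYGB than in disease (-2.86 ± 0.69, adjusted p = 0.0252, limma) and than in healthy control (-2.57 ± 0.69, 0.04). The reductase gene Por had 4258 to 6811 in RYGB, 2723 to 7701 in disease and 2820 to 6922 in healthy control libraries. Of 10 epoxide hydrolase and arachidonic acid release genes 0 were called in any comparison.

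Of 19 sterol and bile acid enzymes outside the family, Akr1c14, a steroid reductase gene, was lower in RYGB than in disease (-0.99 ± 0.17, adjusted p = 0.00224, limma) and than in healthy control (-0.78 ± 0.17, 0.0132). Baat, which conjugates bile acids, was higher in disease (1.34 ± 0.27, 0.00959) and in RYGB (0.95 ± 0.27, 0.0453) than in healthy control, as was Ch25h, which makes an oxysterol, in RYGB (1.29 ± 0.34, 0.0367). Of 15 steroid hormone enzymes Hsd17b2 alone was called, higher in RYGB than in healthy control (1.21 ± 0.30, 0.0293). Of 11 retinoid genes 2 were higher and 0 lower in disease against healthy control, among them the binding protein gene Crabp1 (0.84 ± 0.21, 0.0485), and Rbp4 (2.51 ± 0.42, 0.00243) higher in RYGB than in healthy control. Of 5 tested P450 genes outside the rule, Cyp27b1, which activates vitamin D, was higher in RYGB than in disease and in healthy control (3.97 ± 0.49, 0.000325, and 4.11 ± 0.49, 0.000253). Cyp24a1, which degrades vitamin D, was lower in RYGB than in healthy control (-1.35 ± 0.28, 0.0122).

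Reads counted in genes were 12470525 to 42713246 per library in RYGB, 8157977 to 37142922 in disease and 8116638 to 34169198 in healthy control, of which P450 members took 0.915 to 1.30%, 0.633 to 1.08% and 0.736 to 1.56%. The phosphate carrier gene Slc34a1 of the proximal tubule was between 40156 and 122436 in every library. Of 23 tested proximal tubule markers 2 were higher and 0 lower in RYGB against disease, 1 higher and 2 lower in RYGB against healthy control, and 0 higher and 5 lower in disease against healthy control. Their sums were 614530 to 1029481 in RYGB, 344486 to 826160 in disease and 486646 to 789996 in healthy control libraries. The 9 liver markers in the table summed to 673.5 to 1104 in RYGB, 695.1 to 1864 in disease and 363.1 to 1283 in healthy control libraries, and the 6 adrenal markers to 1178 to 1739, 1056 to 1377 and 1081 to 1407. Most of the adrenal sums came from Fdx1, which averaged 1349, 1132 and 1116 in the same order. Of the 6 adrenal markers 2 were under 10 in all libraries. Of 17 tested tubular injury markers 1 was higher and 4 lower in RYGB against disease, 2 higher and 0 lower in RYGB against healthy control, and 6 higher and 1 lower in disease against healthy control, led there by Spp1 and Havcr1. Spp1 averaged 22335 ± 8282 in disease and 3766 ± 864 in healthy control libraries (SD, n = 6 each; adjusted p = 5.58e-06, limma). Havcr1 differed by 4.63 ± 0.68 on the log2 scale (0.000911). Their sums were 24517 to 27875 in RYGB, 34270 to 60880 in disease and 20295 to 30062 in healthy control libraries. Of 10 fibroblast and smooth muscle markers 5 were lower in RYGB than in disease, with sums of 6522 to 11207 in RYGB, 11479 to 15374 in disease and 8586 to 14540 in healthy control libraries. In RYGB against healthy control 3 of them were lower, and in disease against healthy control 1 was higher. Of 7 thick ascending limb and distal tubule markers 3 were higher in RYGB than in disease and 2 lower in disease than in healthy control, with sums of 72314 to 159650, 54866 to 126126 and 102160 to 134165 in RYGB, disease and healthy control libraries. Of 12 tested macrophage markers 2 were lower in RYGB than in disease, 1 higher and 1 lower in RYGB than in healthy control, and 2 higher in disease than in healthy control. The lists of collecting duct, podocyte, endothelial, lymphocyte and adipocyte markers had at most 2 genes called in any comparison. The part of any of these in the P450 results was not tested.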

How the data were processed

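RNA was measured in 18 rat kidney cortex libraries, 6 each of RYGB, disease and healthy control. Per the labels' protocols, RNA from flash-frozen sections was purified on columns and made into libraries with a stranded kit for polyadenylated RNA. The deposited table gives a signal for each gene, whole multiples of 1 step per library, as read counts that the authors divided by a size factor would be. The submitters' processing notes list FastQC 0.11.2, MultiQC 0.9, HTSeq 0.6.1p1 and DESeq2. The notes name build Rnor 5.0. Aligner and annotation: not given in the sources used here. Reads were recovered by dividing by that step, which left at least 99.9837% of values per library within 0.01 of a whole number. In the table of 18423 entries, 3 name no gene and were left out: reads outside genes (27.62 to 43.17% of all counted reads), reads at several places (13.46 to 18.13%) and ambiguous reads (0.069 to 0.114%).

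Genes with at least 10 normalised reads in at least 6 libraries (13988) were tested with limma 3.58.1 in R 4.3.3 on log2(value + 1) with a mean-variance trend. A single fit of 3 group means over 18 libraries, with 15 residual degrees of freedom, gave the 3 comparisons, two-sided, with Benjamini-Hochberg adjustment over all genes tested and a threshold of 0.05. Fold changes are on the log2(value + 1) scale, which understates changes of low genes. The script was checked on simulated data. Alternatives were a pseudocount of 5, no filter, a minimum of 50, quantile normalization, the compared groups alone, a replicate block, edgeR 4.0.16 and DESeq2 1.42.0 on the recovered reads, and each library left out. Added after the data were seen were a block within disease and healthy control, RYGB replicates 2 and 4 left out together, and healthy control replicate 4 and disease replicate 5 left out together.

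Members, lists and alternatives were chosen with earlier results of these data known. Members averaging at least 10 in 1 group are described, those called in any comparison with full values, and up to 3 called genes per list and comparison are named, apart from some that are not reported here. The labels do not say that each library is a separate animal, so p-values reflect only the spread among libraries, which may be technical. Replicate numbers come from the sample titles. Deviations from the group means correlated weakly between same-numbered disease and healthy control libraries (r of 0.131 to 0.325 in 6 of 6 pairs), but not between RYGB and disease (-0.557 to 0.309) or RYGB and healthy control (-0.31 to 0.0141). Only 3 of 6 disease libraries correlated best with the healthy control of their own number, so a pairing is not established. Promoters were matched by symbol to RefSeq (GRCr8), which held 42 of the 49 members, while the counts rest on Rnor 5.0.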

Additional observations from a re-analysis of the deposited data

Results flagged for a closer look

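Among 87 groups of 6 libraries (29 described members in 3 groups), 8 had 1 library far from the others, by a gap to its nearest neighbour of over 0.625 of the group's range. Chance would mark about 1 group in 20, or 4.35 of 87, if values were normally spread and groups independent. Neither was shown here: some values are at or near 0, and the 87 groups share 18 libraries. The rate is therefore no test of the 8. Healthy control replicate 4 was the high library in 5 of the 8. It had 45164 normalised reads of Cyp2e1 (6951 to 12542 in the other 5), 5301 of Cyp4a1 (1517 to 2447), 3216 of Cyp2d2 (993.6 to 1808), 704 of Cyp2d4 (190.6 to 361.6) and 29.44 of Cyp4f4 (0 to 2.348). Disease replicate 5 was the high disease library in Cyp1a1, with 6.166 (0 to 2.13 in the others), and in Cyp21a1, with 9.249 (0 to 2.491). RYGB replicate 3 was low in Cyp2t1, with 298.3 (416 to 465.4 in the other RYGB libraries). The cause of these values was not tested.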

How the results depend on the processing

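The 16 differences called for 10 members kept their direction under every alternative run. Leaving out 1 library ended the call in 55 of 288 refits, and the other alternatives ended it in 12 of 144. The calls for Cyp1a1 in both comparisons, Cyp2c24 in disease, Cyp7b1 in both, and Cyp4a3 and Cyp2d4 in RYGB against disease held without any 1 library. Members called without 1 library numbered 4 to 8 for RYGB against disease, 1 to 11 for RYGB against healthy control (11 without healthy control replicate 4, 1 without RYGB replicate 6) and 2 to 3 for disease against healthy control. A minimum of 50 left 1 member called for disease against healthy control, because Cyp1a1 was then not tested and Cyp2j4 missed the threshold (0.0575), and leaving out RYGB replicates 2 and 4 left 4 for RYGB against disease. With the replicate number as a block over all groups, members called numbered 7 in RYGB against disease, 6 in RYGB against healthy control and 2 in disease against healthy control. The block within disease and healthy control gave 4, and the blocks changed no other call than those of Cyp2j4 and Cyp4a8.

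Over all genes the calls without 1 library numbered 259 to 817 for RYGB against disease (552 with all libraries), 203 to 1501 for RYGB against healthy control (621) and 124 to 310 for disease against healthy control (225). DESeq2 called 1098, 1602 and 410 in that order. Leaving out RYGB replicates 2 and 4 gave 194 and 211 for the comparisons with RYGB, the groups fitted alone gave 1442 for RYGB against healthy control, and a minimum of 50 gave 143 and leaving out healthy control replicate 4 and disease replicate 5 gave 344 for disease against healthy control. Of the 84 fold changes of members 18 changed sign in some alternative, each at most 0.45 in size and with an adjusted p of at least 0.38 in limma. Among those printed these were disease against healthy control for Cyp2e1 (-0.0201 in edgeR and -0.0194 in DESeq2) and for Cyp2c23 (0.029 without healthy control replicate 4 and disease replicate 5). Cyp1a1 and Cyp17a1 rest on few reads, so small differences in them were not detectable at this depth. Both passed the filter on low values only with the RYGB libraries counted, where their means were highest. The cause of the moved counts was not tested.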
